A study of Mus musculus with 6 samples.

Results

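The insulin-like growth factor (IGF) family was examined in mouse gliomas through 10 genes, namely the ligands Igf1 and Igf2, the receptors Igf1r and Igf2r, and the binding proteins Igfbp2 to Igfbp7. They were chosen by symbol, as probe sets annotated with 1 of these names alone. Each of the 10 was read by 1 such probe set, out of 19938 genes measured in all. Affymetrix arrays of total RNA compared 3 relapsed gliomas, numbered 1, 2 and 3, with 3 control gliomas, numbered 1, 2 and 4, at 1 array per tumour. In both groups the tumours came from cells in which mutant EGFR, a receptor for epidermal growth factor, drove the glioma, and these cells were placed under the flank skin of Nu/Nu mice, which lack a thymus. Tumours of both groups were taken at 2 cm3. The series title calls the relapsed gliomas relapse tumours upon ablation of mutant EGFR. Doxycycline, at 2 g/L in drinking water, was given to some of the mice, and the labels neither assign it to a group nor give the age of the mice or the form of the mutant receptor. The tumours lay outside the brain, and the arrays read tumour and host RNA together.

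IGF1 and IGF2 are secreted peptides that activate the tyrosine kinase receptor encoded by Igf1r, which signals through insulin receptor substrates to phosphoinositide 3-kinase (PI3K) and AKT. Igf2r encodes the mannose 6-phosphate receptor, which has no kinase and carries IGF2 and lysosomal enzymes to the lysosome. The binding proteins hold the ligands outside the cell, where they can limit or prolong signalling, and proteases release the ligands from them. In the brain IGF1 promotes the growth of glia and neurons, IGFBP2 is abundant in the developing nervous system, and in humans IGFBP2 is high in malignant glioma.

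Igfbp2 fell in the relapsed gliomas, and no other gene of the family passed the test in either direction. Igf1 and the binding proteins Igfbp5 and Igfbp6 had means more than 1 log2 unit higher in relapsed gliomas without passing, and Igf1r and Igfbp3 had lower means. With limma and Benjamini-Hochberg adjustment over all genes, 1 of 10 family genes was called at an adjusted p under 0.05, against 9.16% of all genes. None of the 10 was called higher, against 3.69% of all genes. In the lower direction the count was 1 of 10, against 5.47% of all genes, so the share called is near that of the array as a whole. The 6 arrays did not overlap between groups for 5 of the 10 genes, against 30.8% of all genes. Of these, 2 were higher in relapsed gliomas, against 13% of all genes, and 3 were lower, against 17.8%. Without adjustment, 6 of 10 had a p under 0.05, against 26.6% of all genes. The family genes lay further apart between groups than most genes, with a median absolute difference of 0.62 on the log2 scale, against 0.16 over all genes. They also varied more between tumours of 1 group. The median SD was 0.38 among relapsed and 0.28 among control gliomas, against 0.13 and 0.12 for all genes. These comparisons were not matched for level. With the dimmer 50% of genes left out, 9 of the 10 family genes remained. In that fit 4 of the 9 were called, against 20.3% of genes. An unadjusted limma p under 0.05 was held by 6 of the 9, against 3872 of 9969 genes. The labels do not say that each tumour came from its own animal, so the p-values measure only the spread between these tumours.

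**Figure D1:**
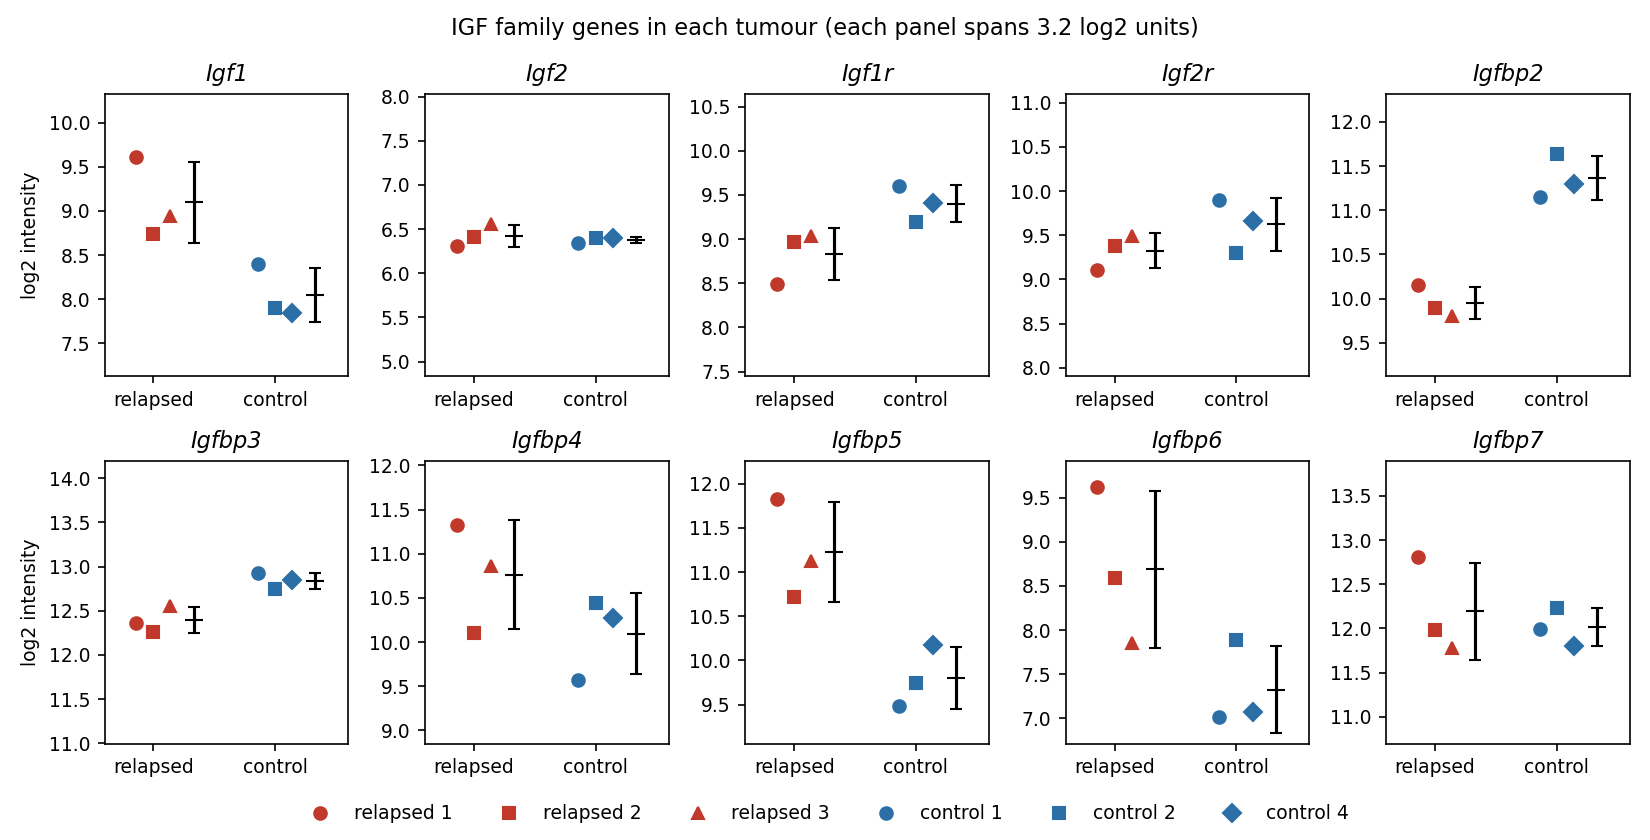
Log2 intensity of the 10 IGF family genes in each tumour, relapsed gliomas in red at the left and control gliomas in blue at the right of each panel, with the group mean and SD (n = 3) as black bars. Each panel spans the same range, and Igfbp2 shows the widest gap between groups, 0.995 log2 units between the nearest tumours.

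Igfbp2, on chromosome 1, was the only family gene called in the fit reported here. Its log2 intensity was 10.15, 9.89 and 9.81 in relapsed 1, 2 and 3, against 11.15, 11.64 and 11.30 in control 1, 2 and 4. All 3 relapsed gliomas lay below all 3 controls, and tumours of the same group lay close together. The mean was 9.95 ± 0.18 (SD, n = 3) in relapsed and 11.36 ± 0.25 (n = 3) in control gliomas. It fell by 1.41 ± 0.16 (SE) on the log2 scale, with a 95% interval of -1.81 to -1.02, which is 2.66-fold lower, at a limma adjusted p of 0.0139. The difference stayed between -1.52 and -1.27 with any single tumour left out. The call was lost without relapsed 2, relapsed 3 or control 4, with limma adjusted p of 0.0539, 0.0569 and 0.0576.

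Igfbp5 is the next protein-coding gene to Igfbp2 on chromosome 1 in the RefSeq gene table, on the other strand, and its difference ran the opposite way. It encodes a binding protein that attaches to extracellular matrix and is made by many mesenchymal cells. Its log2 intensity was 11.83, 10.71 and 11.12 in relapsed 1, 2 and 3, against 9.48, 9.75 and 10.17 in control 1, 2 and 4. All relapsed gliomas lay above all controls, by at least 0.54, and relapsed 1 was the highest. The mean difference was 1.42 ± 0.33 (SE), with an interval of 0.60 to 2.24, which corresponds to a 2.68-fold higher mean, and the limma adjusted p of 0.0580 missed the threshold. The protein-coding genes on the far sides of this pair, Rpl37a beside Igfbp2 and Tnp1 beside Igfbp5, differed by 0.34 ± 0.11 and -0.07 ± 0.06, with adjusted p of 0.131 and 0.535.

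The 250 bases before an annotated start of Igfbp2 (chr1:72824230-72824479, plus strand) and Igfbp5 (chr1:72874866-72875115, minus strand) are shown because these neighbours differed in opposite directions. For Igfbp2 this is the upstream window of 2 listed. Both are RefSeq sequence of assembly GRCm38.p6, 5′ to 3′, with matches to 3 motifs on either strand in capitals.
Igfbp2: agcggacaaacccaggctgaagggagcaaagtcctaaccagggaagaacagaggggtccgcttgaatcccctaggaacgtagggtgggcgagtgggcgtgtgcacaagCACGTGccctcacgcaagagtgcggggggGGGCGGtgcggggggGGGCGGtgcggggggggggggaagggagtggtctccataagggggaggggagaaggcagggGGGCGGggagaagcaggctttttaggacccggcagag
Igfbp5: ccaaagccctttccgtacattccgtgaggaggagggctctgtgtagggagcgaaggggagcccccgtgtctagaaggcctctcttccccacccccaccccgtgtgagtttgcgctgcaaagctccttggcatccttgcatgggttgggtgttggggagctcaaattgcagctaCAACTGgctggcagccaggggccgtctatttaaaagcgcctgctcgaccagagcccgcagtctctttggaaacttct
The motifs were the GC box GGGCGG, the TATA-like TATANA and the E-box CANNTG, which do not overlap one another here. The printed Igfbp2 window held 3 GC boxes and 1 E-box, and the Igfbp5 window held 1 E-box and no GC box. The second Igfbp2 window (chr1:72825137-72825386) held 1 E-box and no GC box, as the Igfbp5 window did, so the number of GC boxes does not separate the genes at both Igfbp2 starts. None of the 3 windows held TATANA. Of 32851 promoter windows of this length in the table, 32.7% held a GC box, 22.6% the TATA-like motif and 66.2% an E-box. The windows were 67.2% and 56.4% G or C for Igfbp2 and 58.8% for Igfbp5. A match describes letters and is not a binding site.

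The remaining binding proteins fell into 3 patterns. Igfbp3 encodes the main carrier of IGFs in blood and was lower in relapsed gliomas by a small and even margin. Its log2 intensity was 12.36, 12.27 and 12.56 in relapsed 1, 2 and 3, against 12.93, 12.75 and 12.84 in control 1, 2 and 4. The groups did not overlap, and the nearest tumours lay 0.19 apart. The difference was -0.44 ± 0.10 (SE), with an interval of -0.69 to -0.20, and the limma adjusted p was 0.0502. This lies at the threshold, and Igfbp3 passed it in 5 of 15 alternative fits, as low as 0.0294 with each array centred on its median. Igfbp1, a binding protein made mainly in liver and the neighbour of Igfbp3 on chromosome 11, was 5.87 in relapsed and 5.89 in control gliomas. The median of the probe sets that the annotation does not pair with a gene was 5.65, so the signal of Igfbp1 lay close to that level.

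Igfbp4 and Igfbp6 had higher means in relapsed gliomas but wide spreads. Igfbp6 encodes a binding protein that prefers IGF2. Its log2 intensity was 9.62, 8.58 and 7.86 in relapsed 1, 2 and 3, against 7.01, 7.89 and 7.08 in control 1, 2 and 4. Relapsed 3 lay just below control 2, so the groups overlapped, and relapsed 1 and 3 differed by more than the group means did. The difference was 1.36 ± 0.50 (SE), with an interval of 0.11 to 2.61 and a limma adjusted p of 0.159, and without relapsed 1 it was 0.89. Igfbp4, which is cut by the protease PAPP-A, had 11.32, 10.10 and 10.86 in relapsed 1, 2 and 3, against 9.58, 10.44 and 10.27 in control 1, 2 and 4. Relapsed 2 lay within the range of the controls. The difference was 0.66 ± 0.38 (SE), with an interval of -0.28 to 1.61 and a limma adjusted p of 0.339. It was 0.38 without relapsed 1, 0.40 without control 1 and 0.99 without relapsed 2.

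Igfbp7 encodes a relative with low affinity for IGFs that is abundant in vessel walls. It had 12.81, 11.99 and 11.78 in relapsed 1, 2 and 3, against 12.00, 12.23 and 11.80 in control 1, 2 and 4. Apart from relapsed 1, the tumours of both groups lay within the same narrow range. The difference was 0.18 ± 0.29 (SE), with an interval of -0.55 to 0.91 and a limma adjusted p of 0.744, and it was -0.13 without relapsed 1.

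**Figure D2:**
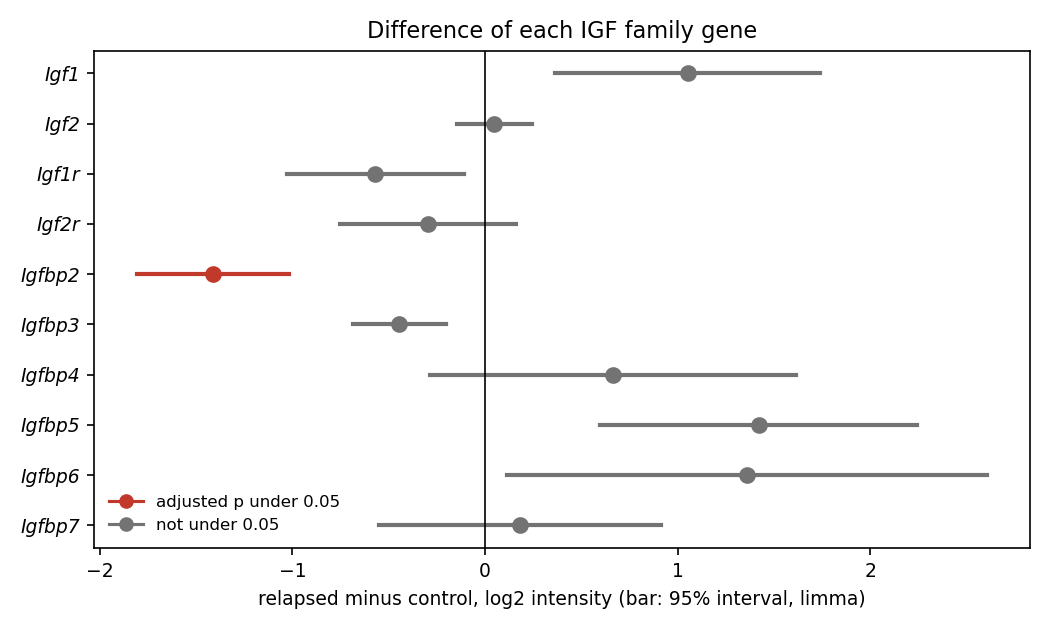
Difference between relapsed and control gliomas in log2 intensity for the 10 genes, with the 95% interval from limma as a bar. Igfbp2 (red) was called, and the intervals of Igf1, Igf1r, Igfbp3, Igfbp5 and Igfbp6 also lie on 1 side of 0 without passing after adjustment.

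Of the ligands, Igf1 was measured well above the level of unpaired probe sets and Igf2 was not far from it. Igf1 is the growth hormone-induced ligand, made in tissues by mesenchymal and myeloid cells among others. Its log2 intensity was 9.61, 8.74 and 8.94 in relapsed 1, 2 and 3, against 8.40, 7.90 and 7.84 in control 1, 2 and 4. All relapsed gliomas lay above all controls, with a gap of 0.34, and relapsed 1 stood highest. The mean was 9.10 ± 0.46 (SD, n = 3) in relapsed and 8.05 ± 0.31 (n = 3) in control gliomas. This is a difference of 1.05 ± 0.27 (SE) with an interval of 0.37 to 1.74, or a 2.07-fold higher mean, and the limma adjusted p of 0.0762 did not pass. Without relapsed 1 the difference was 0.79.

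Igf2, the imprinted fetal growth factor, showed little signal and little difference. Its log2 intensity was 6.31, 6.41 and 6.56 in relapsed 1, 2 and 3, against 6.34, 6.40 and 6.40 in control 1, 2 and 4. The controls lay inside the range of the relapsed gliomas. The difference was 0.05 ± 0.08 (SE), with an interval of -0.15 to 0.24 and a limma adjusted p of 0.743, and its sign turned with quantile normalization or median centring. Control 2 and control 4 hold the identical deposited value, as 2 or more arrays do for 34.3% of all probe sets. Ins2, the insulin gene beside Igf2 on chromosome 7, stood at 5.92 in relapsed and 6.02 in control gliomas, again near the 5.65 of unpaired probe sets.

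Both receptors had lower means in relapsed gliomas, and neither passed. Igf1r, the kinase that transmits the signal of both ligands, had 8.49, 8.97 and 9.03 in relapsed 1, 2 and 3, against 9.60, 9.19 and 9.41 in control 1, 2 and 4. The groups did not overlap, by a gap of 0.15, and relapsed 1 was the lowest. The difference was -0.57 ± 0.18 (SE), with an interval of -1.03 to -0.11 and a limma adjusted p of 0.123, and without relapsed 1 it was -0.40. Igf2r had 9.11, 9.38 and 9.49 in relapsed 1, 2 and 3, against 9.90, 9.30 and 9.66 in control 1, 2 and 4. Control 2 lay among the relapsed gliomas. The difference was -0.30 ± 0.18 (SE), with an interval of -0.76 to 0.16 and a limma adjusted p of 0.370. It was -0.19 without relapsed 1, -0.16 without control 1 and -0.46 without control 2.

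Relapsed 1 stood at the upper or lower end of the relapsed gliomas for 9 of the 10 genes. It was the highest of the 3 for 6 genes, namely Igf1, Igfbp2, Igfbp4, Igfbp5, Igfbp6 and Igfbp7, and the lowest for Igf2, Igf1r and Igf2r. Without it the difference of Igfbp2 was -1.51, with a limma adjusted p of 0.0330. That of Igfbp5 was 1.12.

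**Figure D3:**
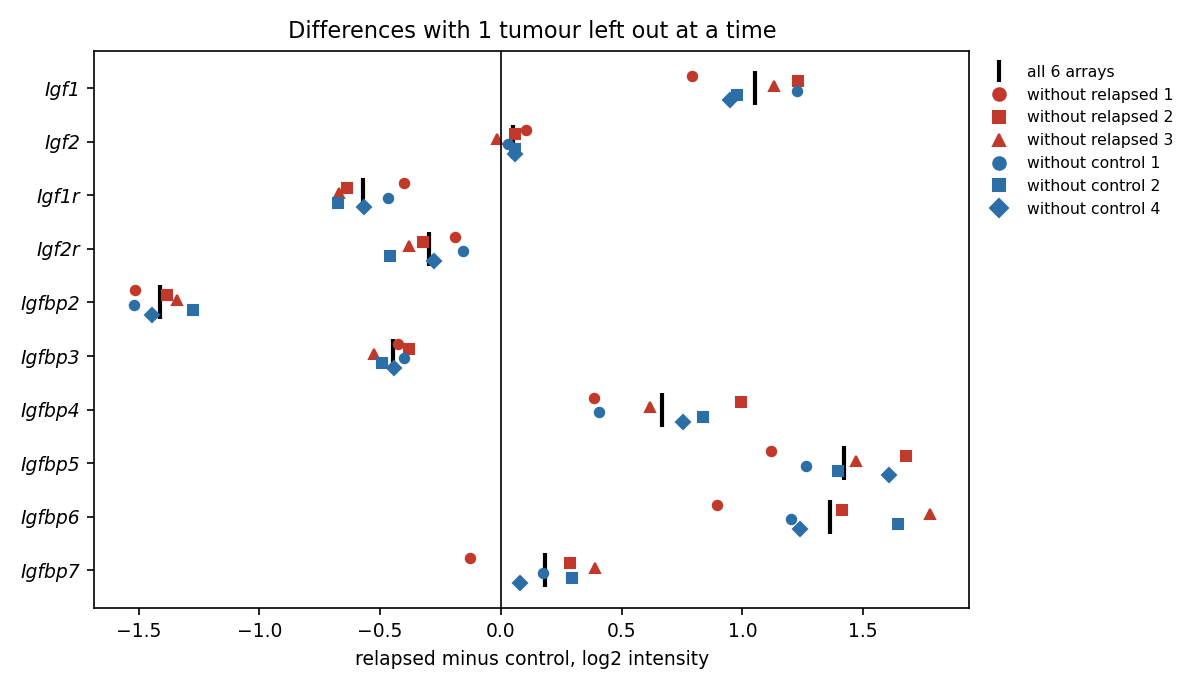
Difference between relapsed and control gliomas for each gene with all 6 arrays (black bar) and with 1 tumour left out at a time (red, a relapsed glioma left out, and blue, a control glioma left out). Leaving out relapsed 1 gave the value nearest to 0 for Igf1, Igf1r, Igfbp4, Igfbp5 and Igfbp6. It turned the sign of Igfbp7, while Igfbp2 stayed between -1.52 and -1.27.

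Markers of several cell types, though not all, moved with the same contrast. None of 10 skeletal muscle, 9 adipocyte, 10 keratinocyte and 7 T and B cell markers was called, against 9.16% of all genes. Means were lower for all 10 skeletal muscle markers. They were higher for 8 adipocyte, all 10 keratinocyte and 5 T and B cell markers. Of 13 fibroblast markers, 8 rose and none fell, against 3.69% of all genes called higher, and 3 had lower means. The mean of gene-centred log2 values over this list was 1.09, 0.38 and 0.27 in relapsed 1, 2 and 3. In control 1, 2 and 4 it was -0.37, -0.45 and -0.91. The largest differences in this list were 2.76 ± 0.49 for Lum and 2.52 ± 0.47 for Dpt, which encode proteins of the collagen matrix. Of 13 macrophage markers, 10 rose and none fell, against 3.69% of all genes called higher, and all 13 had higher means. The values of this list were 0.94, 0.51 and 0.46 in relapsed and -0.82, -0.57 and -0.52 in control gliomas. Of 10 oligodendrocyte progenitor markers, 7 fell and none rose, against 5.47% of all genes called lower, and 2 had higher means. The values of this list were -0.83, -0.91 and -0.96 in relapsed and 0.67, 1.20 and 0.83 in control gliomas. The mean log2 level over each list ranged from 10.14 to 10.97 in relapsed and 8.96 to 9.50 in control gliomas for fibroblasts, and from 10.32 to 10.80 and 9.04 to 9.33 for macrophages. For oligodendrocyte progenitors it ranged from 7.67 to 7.80 in relapsed and 9.30 to 9.84 in control gliomas. No marker of these 3 lists lay below the level of unpaired probe sets in all 6 arrays. Relapsed 1, the tumour that was highest for Igf1, Igfbp4, Igfbp5, Igfbp6 and Igfbp7, was also highest for fibroblast and macrophage markers. Its adipocyte markers stood at 2.38, against -0.64 and -0.35 in relapsed 2 and 3. Control 2, the control with the highest Igfbp2, Igfbp4, Igfbp6 and Igfbp7, held the highest skeletal muscle value, 1.55. Control 2 was also the highest control for oligodendrocyte progenitor (1.20) and endothelial (0.35) markers. It likewise led the controls for pericyte and smooth muscle (0.21) and for astrocyte and neural stem cell markers (0.63). Relapsed 3, the relapsed glioma with the highest Igf2, Igf1r, Igf2r and Igfbp3, held the highest keratinocyte value, 1.43. Of 12 endothelial markers 1 fell and none rose, a share near the 9.16% of all genes, but 11 had lower means. The median difference was -0.36. At an unadjusted limma p under 0.05, 5 were lower, against 26.6% of all genes in either direction. The endothelial values did not overlap, at -0.11, -0.15 and -0.32 in relapsed and 0.07, 0.35 and 0.15 in control gliomas. Of 10 pericyte and smooth muscle markers 1 fell and none rose, again near the 9.16% of all genes. Relapsed 1 was again the highest tumour, at 0.54, against -0.23 and -0.17 in relapsed 2 and 3. Control 1, 2 and 4 stood at -0.12, 0.21 and -0.23. The part of these cell types in the IGF family values was not tested. In bulk tumours, fewer cells of a type and less RNA per cell cannot be told apart. Glial markers, which belong to the labelled tumour type, lay above the level of unpaired probe sets in at least 1 array each, and many were lower in relapsed gliomas. Of 10 astrocyte and neural stem cell markers, 4 fell and none rose, against 5.47% of all genes called lower. In this list 7 had lower means and 3 had higher means, 1 of the 3 at an unadjusted limma p under 0.05. The median difference was -1.003. The gene-centred values of the list were -0.26, -0.35 and -0.54 in relapsed and -0.04, 0.63 and 0.57 in control gliomas. Of its markers with lower means, Fabp7 averaged 10.31 in relapsed and 12.52 in control gliomas, Nes 11.35 and 12.07, and Sox2 10.16 and 11.37. The oligodendrocyte progenitor marker Olig2 averaged 7.29 in relapsed and 10.84 in control gliomas.

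**Figure D4:**
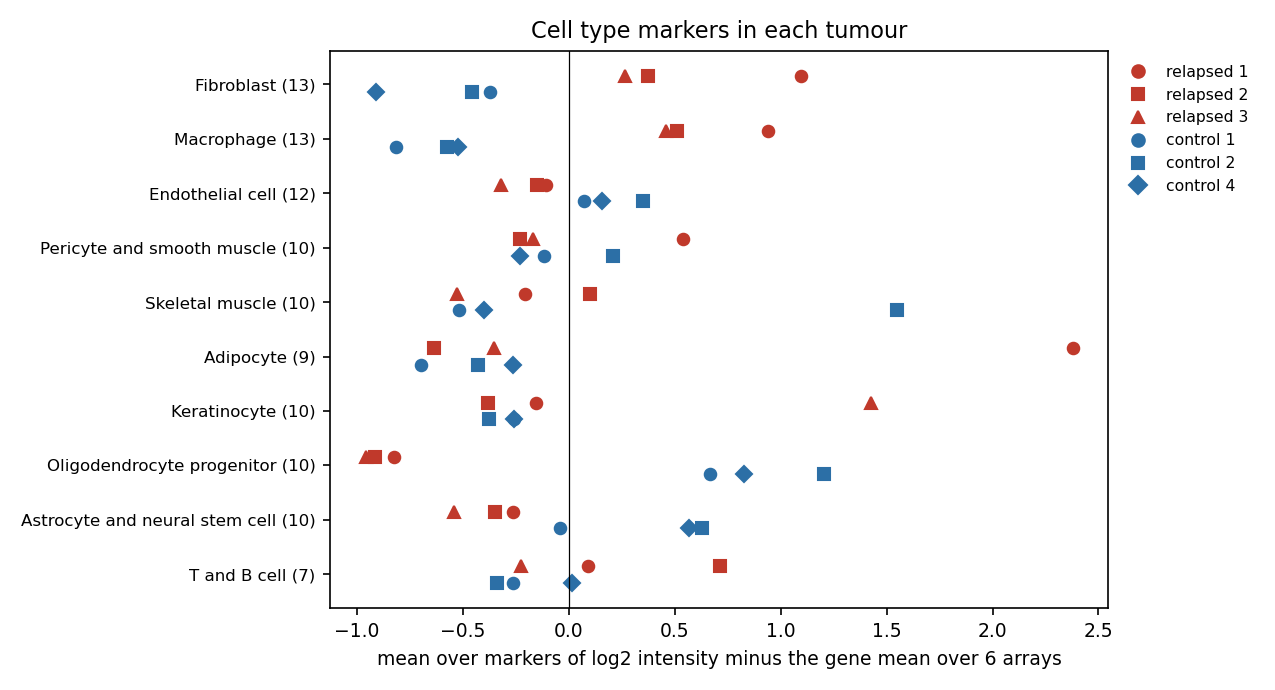
Mean over the markers of a cell type of log2 intensity, centred per gene on its 6-array mean, for each tumour (relapsed in red, above, and control in blue, below), with the number of measured markers in brackets. Fibroblast and macrophage markers are higher in all relapsed gliomas, oligodendrocyte progenitor markers are lower, and relapsed 1 stands apart for adipocyte markers at 2.38.

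Beyond the family itself, 9 lists of other IGF pathway genes were examined, in which 2 genes rose and 4 fell. That is 5.88% of their measured genes called, against 9.16% of all genes. The 2 that rose belonged to 14 measured relatives that carry the IGFBP domain, against 3.69% of all genes called higher. The median difference of this list was 0.11, against -0.02 over all genes. Ccn4, a matricellular protein induced by Wnt signalling, rose to 10.38, 9.98 and 9.86 in relapsed 1, 2 and 3, against 8.72, 8.96 and 8.54 in control 1, 2 and 4. Its difference was 1.33 ± 0.18 (SE), or 2.51-fold, with a limma adjusted p of 0.0182. Igfbpl1, the IGF-binding protein-like gene, had 7.38, 6.96 and 7.53 in relapsed and 6.22, 6.66 and 6.29 in control gliomas. It rose by 0.90 ± 0.19, with a limma adjusted p of 0.0473. With 1 tumour left out, Ccn4 kept its call in 2 of 6 fits, without relapsed 1 or without control 2, and Igfbpl1 in 0 of 6. Without each tumour the adjusted p of Igfbpl1 lay between 0.0569 and 0.145 and that of Ccn4 between 0.0364 and 0.0665.

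Downstream of the receptors, 3 of 21 measured genes of the PI3K and AKT pathway fell, against 5.47% of all genes, and none rose. The median difference was -0.14. Phlpp1, a phosphatase that dephosphorylates AKT, had 7.93, 8.30 and 8.26 in relapsed 1, 2 and 3, against 9.27, 9.70 and 9.72 in control 1, 2 and 4. It fell by 1.40 ± 0.17 (SE), or 2.64-fold, with a limma adjusted p of 0.0158. Tsc2, which encodes tuberin, an inhibitor of mTORC1, fell by 0.55 ± 0.07 with an adjusted p of 0.0158. Pik3r2, a regulatory subunit of PI3K, fell by 0.52 ± 0.09 with an adjusted p of 0.0300. With 1 tumour left out, Phlpp1 kept its call in 3 of 6 fits and Tsc2 in 2 of 6, while Pik3r2 kept it in 0 of 6, with limma adjusted p of up to 0.0601, 0.0585 and 0.0908. Without adjustment, 4 genes of this list were higher and 6 lower at a limma p under 0.05, against 26.6% of all genes in either direction.

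A list of 11 measured genes covered mannose 6-phosphate sorting, the route that Igf2r serves, and other sorting and endocytic receptors. Of these 1 fell and none rose, near the 9.16% of all genes called, with a median difference of -0.13. The gene was Sort1, 1 of the other receptors, which encodes sortilin. It had 8.57, 8.24 and 8.17 in relapsed 1, 2 and 3, against 9.17, 9.48 and 9.29 in control 1, 2 and 4. It fell by 0.99 ± 0.14 (SE), or 1.98-fold, with a limma adjusted p of 0.0199, and with 1 tumour left out it kept its call only without relapsed 1.

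In the other 6 lists no gene was called by limma. Their counts without adjustment stand against 26.6% of all genes with an unadjusted limma p under 0.05, in either direction. Among 13 receptors and adaptors of the insulin family, 1 gene was higher and 1 lower at an unadjusted p under 0.05. These were the adaptors Shc1, at 0.35 ± 0.12 with an adjusted p of 0.133, and Gab1, at -0.57 ± 0.20 with an adjusted p of 0.139. Among 6 other insulin-family ligands and the circulating complex, 1 was higher and 1 lower without adjustment, Insl6 at 1.23 ± 0.27 (adjusted p of 0.0502) and the relaxin gene Rln1 at -0.36 ± 0.13 (0.146). Among 12 IGFBP proteases and inhibitors, 2 were lower without adjustment, the plasminogen activator Plat at -0.48 ± 0.12 (0.0683) and Adamts1 at -0.30 ± 0.10 (0.148). The medians of these 3 lists were 0.00, -0.06 and -0.03.

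Among 8 genes of the growth hormone axis, which induces Igf1, 1 was higher without adjustment, against 26.6% of all genes in either direction. This was the kinase Jak2 at 0.45 ± 0.17 with a limma adjusted p of 0.167. The next smallest p was that of the receptor Ghr, at 1.09 ± 0.50 (0.240). Of 13 imprinted genes beside Igf2 or elsewhere in the genome, 2 were higher and 2 lower without adjustment, with the smallest p for the cell cycle inhibitor Cdkn1c at 0.27 ± 0.07 (0.0690) and for Dlk1 at -0.36 ± 0.10 (0.0820). Of 5 genes that bind Igf2 mRNA or belong to the Lin28 group, none had an unadjusted p under 0.05. Igf2bp3 differed by 0.88 ± 0.47 (0.304) and Lin28a by -0.05 ± 0.07 (0.708). The Igf2bp3 difference was 1.36 without relapsed 1 and 0.51 without relapsed 2, with limma adjusted p of 0.0733 and 0.538. The medians of these 3 lists were -0.20, 0.18 and -0.01.

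**Figure D5:**
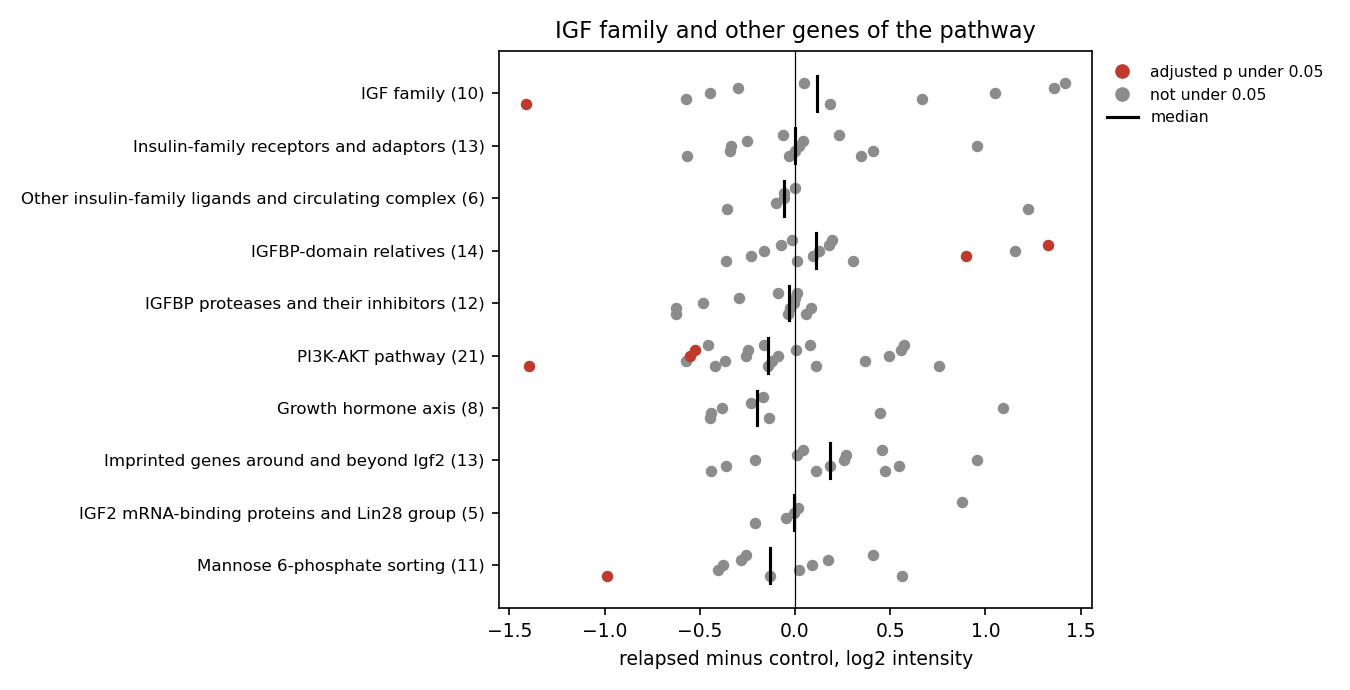
Difference between relapsed and control gliomas in log2 intensity for each measured gene of the IGF family and of the 9 pathway lists, with the number of genes in brackets, called genes in red and the list median as a black bar. The list medians lie between -0.20 and 0.18, and the 7 called genes, Igfbp2 among them, are spread over 4 groups.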

How the data were processed

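Each of 6 arrays has 1 deposited log2 intensity per probe set, a scale read from the values (1.93 to 14.2). Per the submitters' processing notes the affy package was used. For its version, background correction, normalization and summarization, the sources used here give nothing. The array medians lay between 6.67 and 6.68 in relapsed and 6.58 and 6.62 in control gliomas, and any normalization that equalizes arrays would remove a shift shared by most transcripts. Of 35556 probe sets, 21789 carry 1 gene symbol, 1621 several and 12146 none listed. The probe set with the highest mean stood for a gene. Values were used as deposited and fitted over all 19938 genes with limma 3.58.1 in R 4.3.3 (lmFit, eBayes, 4 residual degrees of freedom), two-sided, adjusted by Benjamini-Hochberg and called under 0.05. The fit was tested on simulated data with changes larger than any difference of the family. That test therefore does not show whether differences of the size reported here would be found. The number of arrays limits the precision, and an exact permutation of 3 against 3 arrays cannot go below 0.1. The family, the lists and the tests were chosen with earlier results of these data known. Genes named from a pathway list were up to 4 called members with the largest difference, or the 2 with the smallest p. Other genes named were chosen after their values were seen. Of 218 list entries, 207 were measured. Alternatives were the mean of a gene's probe sets, all probe sets tested, a filter on the dimmer 50% of genes, quantile normalization, median centring, a mean-variance trend, array weights, the tumour number as a block, and each tumour left out. Promoter windows came from the RefSeq table and carry no measurement.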

Additional observations from a re-analysis of the deposited data

How the results depend on the processing

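Of 10 family genes, 1 was called as reported, against 9.16% of all genes. The count was 4 of 9 with the dimmer 50% of genes left out (Igf1, Igfbp2, Igfbp3 and Igfbp5), where Igf2 was dropped and 20.3% of the 9969 genes tested were called. It was 2 of 10 with the mean of probe sets, median centring, a mean-variance trend or array weights (Igfbp2 and Igfbp3, against 9.25%, 12%, 7.74% and 12.9% of all genes) and with quantile normalization (Igfbp2 and Igfbp5, against 10.8%). With 1 tumour left out it ranged from 0 to 1, against 1.32% to 4.89%. There 4 to 7 had an unadjusted limma p under 0.05, against 4313 to 5088 of all genes. Over all genes the count of 1826 ranged from 264 to 975, and that of 6 pathway genes from 0 to 4, with 1 tumour left out. With relapsed 1 and control 2 left out together, chosen after seeing the data, 0 genes were called in each of the 3 counts by limma, where 5 family, 29 pathway and 5311 of all genes had an unadjusted p under 0.05, and 8 family genes did not overlap, against 51.8% of all genes with so few arrays. That count ranged from 5 to 7 with 1 tumour left out, against 36.9% to 42.6%, and was 5 with median centring, against 47.3%. Tumour numbers 1 and 2 occur in both groups. With this number as a replicate block, 0 family, 0 pathway and 0 of all genes were called, with 1 residual degree of freedom, and 3, 8 and 2199 had an unadjusted limma p under 0.05. Igfbp2 differed by -1.37 in that fit, with an adjusted p of 0.415. Deviations from the group means correlated at -0.34 between the 2 tumours numbered 1 and at -0.25 between those numbered 2. Between tumours with unlike numbers they correlated at -0.19 to 0.35, which is as strong. Whether the numbers mark pairs cannot be told from these values, and the fit reported here used no pairs. The sign of Igf2 turned with quantile normalization (-0.012), median centring (-0.026), the replicate block (-0.0077) and without relapsed 3, with a range of -0.017 to 0.105 over the tumours left out. That of Igfbp7 turned without relapsed 1 (range -0.128 to 0.389) and without relapsed 1 and control 2 (-0.017), and that of Lin28a without control 1 (range -0.0896 to 0.0022). The cause was not tested. Over all genes 735 rose and 1091 fell, and with median centring 696 rose and 1687 fell, while the median of all genes moved to -0.09.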

Other observations

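Of 8 genes of the growth hormone axis, 3 stood higher in control 4 than in the other controls, a difference that was not tested. Control 4 had Socs2, a feedback inhibitor of growth hormone signalling, at 10.95, against 8.62 and 8.80 in control 1 and 2 and 8.66 to 9.43 in the relapsed gliomas. Cish, another inhibitor of this group, was 7.71 in control 4 and 6.69 and 6.98 in the other controls. Stat5b, the transcription factor that growth hormone activates, was 9.91 in control 4 and 8.29 and 8.70 in the others. Igf1 was not higher in control 4, at 7.84, than in the other controls.

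Mest, an imprinted gene expressed in mesoderm and fat, was 12.78 in relapsed 1, against 9.46 and 9.53 in relapsed 2 and 3 and 9.50 to 10.60 in the controls. Igf2bp3 ran the other way, at 5.67 in relapsed 1 and 7.37 and 6.85 in relapsed 2 and 3, against 5.95, 5.34 and 5.97 in control 1, 2 and 4. Ccn5, a matricellular relative of Ccn4, had 10.65, 9.35 and 9.38 in relapsed 1, 2 and 3 and 8.65, 8.95 and 8.32 in control 1, 2 and 4, with a limma adjusted p of 0.142. These genes were chosen after their values were seen.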
